A study of Mus musculus with 4 samples.

Results

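Striated muscle is built from sarcomeres, in which thin filaments of actin slide past thick filaments of myosin. Troponin sits on the thin filament as a complex of a calcium sensor (troponin C), an inhibitor (troponin I) and an anchor to tropomyosin (troponin T), and it lets myosin act when calcium rises. Most sarcomere proteins come in forms that mark fast skeletal, slow skeletal or heart muscle, and several of these forms are also made in embryonic muscle. The ureter wall holds smooth muscle, which has no troponin-based switch and uses other actins and light chains.

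The 10 genes described here are the troponin genes Tnnt1, Tnnt2, Tnnt3, Tnnc1 and Tnni1, the myosin light chain genes Myl1 and Myl4, the sarcomeric actin genes Acta1 and Actc1, and the muscle creatine kinase gene Ckm. They were chosen by name, as the probe sets that the chip's annotation assigns to a single gene among them. This gave 14 probe sets for all 10 genes, out of 18193 genes read on the chip. The samples were 2 normal ureters and 2 ureter tumors of C57Bl/6 mice, each on its own Affymetrix Mouse Genome 430 2.0 array. Per the labels' protocols, ureter epithelium was isolated at 6 to 8 weeks of age. The treatment text, the same on all 4 samples, describes R26rtTA;teto-Cre;Ncstnf/f mice that received doxycycline at 3 weeks of age, for 1 week, to induce recombination. In that design rtTA comes from the Rosa26 locus, which is active in most cell types, and with doxycycline it switches on Cre, which removes the floxed Ncstn alleles. Its product, nicastrin, belongs to gamma-secretase, the protease that frees the active part of Notch receptors. The sources used here give neither the genotype of single samples nor the number of animals behind each array. The p-values therefore measure the spread between these samples.

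The values are MAS5 signals, a linear brightness per probe set that the authors scaled to the same trimmed mean on each array. Differences are tumor minus normal on the log2(signal + 16) scale, which understates the change of dim genes. Of 18193 genes, the 13046 whose mean log2 value reached a limit equal to a signal of 54.65 were tested. Across these genes Pearson's r was 0.976 for the pair of normal arrays but 0.786 for the pair of tumor arrays. The 3' to 5' signal ratio of Gapdh, which rises as RNA degrades, was 0.92 and 0.923 in normal ureter but 1.51 and 1.44 in the tumors. That of Actb was 2.9 and 2.82 against 2.47 and 2.63. The part of RNA quality in the differences below was not tested. Ncstn itself gave signals of 99 and 66.2 in normal ureter and 81.6 and 131 in the tumors (limma adjusted p = 0.725). The sources used here do not say which part of it was deleted, so it checks no label.

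Of the 10 genes, Tnnt2 and Myl1 fell in the tumors and the other 6 tested genes did not pass the test. Tnnt3 and Tnni1 lay under the limit and were not tested. The limma test, with Benjamini-Hochberg adjustment over all 13046 genes and a threshold of 0.05, called 187 genes, or 1.43% of those tested, of which 123 were lower (0.943%) and 64 higher (0.491%). In 6 of the 8 tested genes both tumor arrays lay below both normal arrays, where 27.7% of all genes tested did so, and in Myl4 both lay above, as in 29.4% of all genes tested. The median difference of the 8 genes was -2.24, beside 0.03 over all genes tested. These counts describe the genes and support nothing further, because 5 of the 8 (Tnnt1, Tnnt2, Myl1, Actc1 and Ckm) were under the limit on both tumor arrays and were tested through their normal arrays. In such bulk samples, fewer cells of a type and less RNA per cell cannot be told apart.

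The starts of Tnnt2 and Myl1, the 2 genes that fell, are shown with that of Acta1, which did not pass, because all of them hold the same short muscle motif. Each window is 300 bases from RefSeq (GRCm38.p6), with 250 bases before and 50 after an annotated gene start, printed 5′ to 3′ on the gene's strand. Capitals mark the M-CAT motif CATTCC on either strand. The Tnnt2 window is at chr1:135836084-135836383 on the plus strand, the Myl1 window at chr1:66945007-66945306 on the minus strand, and the Acta1 window at chr8:123894726-123895025 on the minus strand.
Tnnt2: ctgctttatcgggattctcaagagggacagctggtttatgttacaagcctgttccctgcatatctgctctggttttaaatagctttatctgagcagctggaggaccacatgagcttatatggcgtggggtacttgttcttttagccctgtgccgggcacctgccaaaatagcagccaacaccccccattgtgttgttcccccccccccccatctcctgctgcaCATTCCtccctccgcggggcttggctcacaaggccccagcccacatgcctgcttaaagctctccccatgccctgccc
Myl1: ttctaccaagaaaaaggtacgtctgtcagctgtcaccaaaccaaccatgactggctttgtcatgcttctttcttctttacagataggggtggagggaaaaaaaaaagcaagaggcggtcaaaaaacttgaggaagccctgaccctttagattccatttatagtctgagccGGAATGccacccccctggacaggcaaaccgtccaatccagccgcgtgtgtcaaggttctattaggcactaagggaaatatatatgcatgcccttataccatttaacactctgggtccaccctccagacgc
Acta1: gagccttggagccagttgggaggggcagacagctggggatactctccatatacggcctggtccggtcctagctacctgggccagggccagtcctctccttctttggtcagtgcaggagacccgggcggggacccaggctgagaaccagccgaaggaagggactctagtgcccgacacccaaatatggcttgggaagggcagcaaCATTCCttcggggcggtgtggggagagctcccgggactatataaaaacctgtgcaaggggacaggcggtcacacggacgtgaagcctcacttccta

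M-CAT motifs are bound by TEAD factors, E-boxes (CANNTG) by MyoD-type factors among others, and CArG boxes by serum response factor. The first base of the M-CAT match lay 27 bases before the Tnnt2 start, 80 before the Myl1 start and 46 before the Acta1 start. RefSeq windows were found for 9 of the 10 genes, 11 windows in all, with a second window for Tnnt2 and Tnni1. The M-CAT motif was in 4 of the 11 windows, 1 each of Acta1, Myl1, Tnnc1 and Tnnt2, and in 14.7% of the 32851 windows in the table. The second Tnnt2 window did not hold it. An E-box was in 10 of the 11 windows, all but that of Myl4, and in 72.3% of all windows. The CArG box was in 2 of the 11, those of Acta1 and Actc1, and in 1.63% of all windows, and in Acta1 it began 73 bases before the start. The genes with an M-CAT match included Tnnt2 and Myl1, which fell, and Acta1 and Tnnc1, which did not pass. A match is a run of letters and not a shown binding site.

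Among the troponin T genes, Tnnt2 encodes the heart form, which embryonic skeletal muscle also makes. Its probe set 1418726_a_at gave signals of 3145 and 2483 in normal ureter and 38.1 and 53.9 in the tumors. The groups did not overlap, and both tumor arrays were under the limit of 54.65. The gene fell by 5.51 log2 units (limma, SE 0.28 with n = 2 in each group, adjusted p = 0.0369), the 19th largest fall of the 13046 genes tested. The difference was -5.70 on tumor replicate 1 and -5.33 on tumor replicate 2. A second bright probe set, 1424967_x_at, whose name marks probes that can bind other transcripts, gave 3255 and 2992 against 4.95 and 59.8. Fitted among every probe set it fell by 6.30 (limma, SE 0.67, adjusted p = 0.0381), so both bright probe sets of Tnnt2 passed, where 1.19% of probe sets were lower. The third, 1440424_at, was under the limit on every array, with 33.7 and 50.7 against 26.1 and 3.81. The call of Tnnt2 ended without normal replicate 1 (adjusted p = 0.643) or normal replicate 2 (adjusted p = 0.655), where limma called 0 genes at all (884 and 889 had an unadjusted p under 0.05). It also ended without the intensity trend (adjusted p = 0.0603), which left 2 genes.

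**Figure D1:**
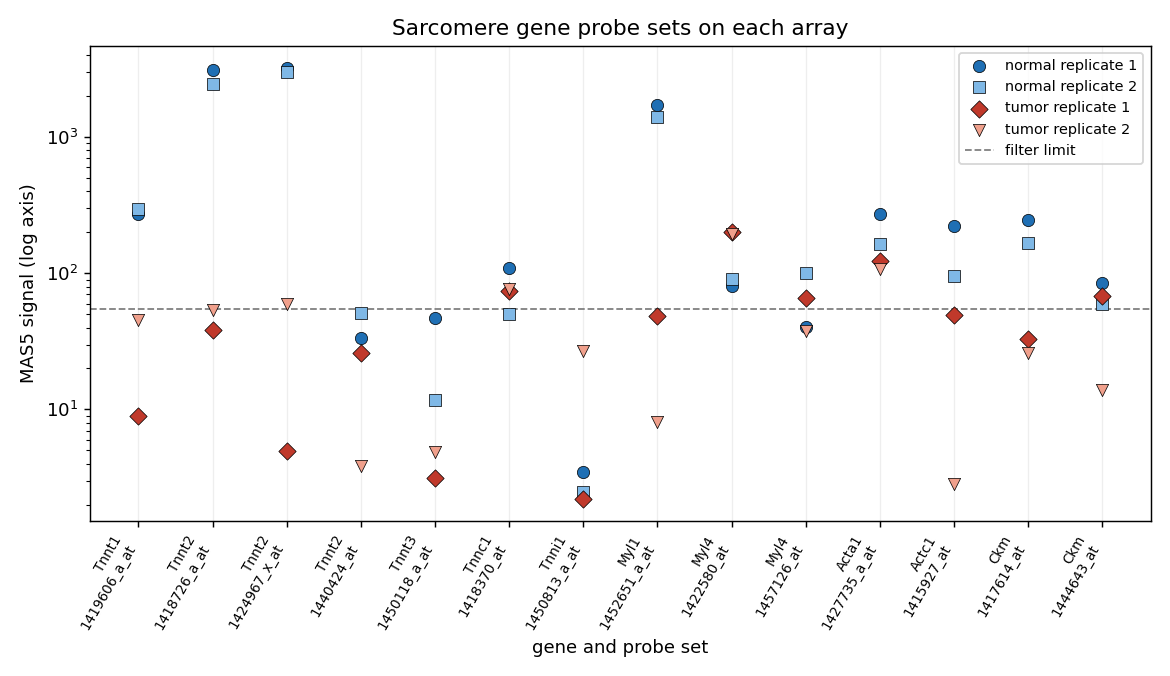
MAS5 signal (log axis) of the 14 probe sets of the sarcomere genes on each of the 4 arrays, with the filter limit of 54.65 as a dashed line. The bright probe sets of Tnnt2 and that of Myl1 were between 1401 and 3255 on the normal arrays and at most 59.8 on the tumor arrays, while Tnnt3 and Tnni1 were under the limit on all arrays.

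Tnnt1 encodes the slow skeletal form of troponin T. Its signals were 275 and 299 in normal ureter and 8.93 and 45.5 in the tumors, without overlap. The difference was -2.95 (limma, SE 0.56 with n = 2 in each group, adjusted p = 0.104), -3.60 and -2.30 on tumor replicates 1 and 2, and did not pass. Without either tumor array it passed, with adjusted p = 0.000217 without tumor replicate 1 and 5.46e-06 without tumor replicate 2, where 4298 and 5502 genes passed, or 32.9% and 42.2% of those tested. Such a fit holds 1 tumor array, so the normal arrays alone give the spread, and the lone tumor array is assumed to vary like them. The interval at 95% ran from -4.49 to -1.41. Tnnt3, the fast skeletal form, gave 47.3 and 11.7 in normal ureter and 3.11 and 4.83 in the tumors, all under the limit. The normal arrays of Tnnt3 differed from each other by more than the lower of them differed from the tumor arrays.

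Tnnc1 encodes the troponin C shared by slow skeletal and heart muscle. Its signals were 109 and 50.1 in normal ureter and 74.4 and 77.3 in the tumors. The tumor arrays lay between the normal ones, and the difference was 0.01 (limma, SE 0.47, adjusted p = 0.992) with an interval from -1.28 to 1.31. A halving or a doubling lies inside that interval, and the sign of the difference turned with the pseudocount and with the arrays left out. Tnni1, the slow skeletal troponin I, gave 3.45 and 2.46 against 2.19 and 26.7, with a single tumor array above the others and none at the limit. Of the 5 troponin genes, Tnnt2 therefore passed the test, 2 did not, and 2 were too dim to test.

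Myl1 encodes the essential light chain of fast skeletal myosin, which supports the lever arm of the myosin head. Its probe set 1452651_a_at gave signals of 1736 and 1401 in normal ureter and 48.8 and 8.06 in the tumors. The groups were far apart, and the tumor arrays, both under the limit, differed from each other as well. The gene fell by 5.32 log2 units (limma, SE 0.57 with n = 2 in each group, adjusted p = 0.0487), the 24th largest fall. It was -4.60 on tumor replicate 1 and -6.03 on tumor replicate 2. This adjusted p lay just inside the threshold, and the call ended under 9 of the 16 alternatives, with adjusted p from 0.0528 with the mean of probe sets to 0.655 without normal replicate 2, while the difference ran from -6.20 to -4.17. Without normal replicate 1 the adjusted p was 0.643.

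Myl4 encodes the essential light chain of the atrium and of embryonic muscle, and it was the only tested gene of the 10 whose tumor arrays both lay above both normal arrays. Its probe set 1422580_at gave 80.9 and 91.6 in normal ureter and 202 and 194 in the tumors. The difference was 1.07 (limma, SE 0.31 with n = 2 in each group, adjusted p = 0.175) with an interval from 0.23 to 1.91, and it did not pass. The other probe set, 1457126_at, gave 40.1 and 100 against 66.4 and 38, with overlapping groups and a difference of -0.28 (adjusted p = 0.785 in the fit of every probe set). The other probe set of Myl4 thus did not repeat the higher tumor values, and its overlapping groups gave no clear direction.

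**Figure D2:**
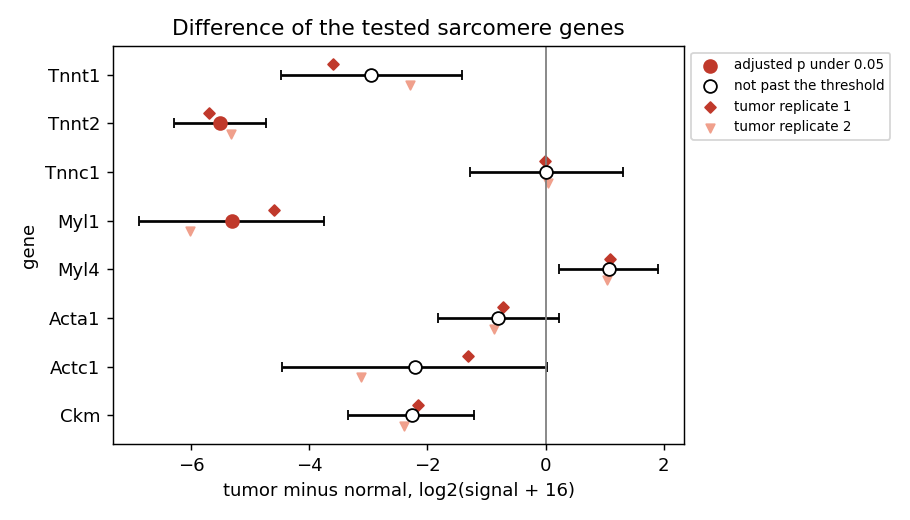
Tumor minus normal on the log2(signal + 16) scale for the 8 tested sarcomere genes (circles, filled red where the limma adjusted p is under 0.05) with 95% intervals, and for each tumor array against the normal mean (diamonds and triangles). Tnnt2 and Myl1 lie at -5.51 and -5.32, and Myl4, which did not pass, lies at 1.07. The tumor arrays of Actc1 lie farthest apart, at -1.32 and -3.12.

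Acta1 and Actc1 encode the skeletal and the heart form of alpha-actin, the body of the thin filament. Acta1 gave signals of 271 and 165 in normal ureter and 123 and 108 in the tumors. The groups did not overlap, although the gap between them was smaller than the gap between the normal arrays. The difference was -0.80 (limma, SE 0.37 with n = 2 in each group, adjusted p = 0.311) with an interval from -1.83 to 0.23. Actc1 gave 223 and 96 against 49.7 and 2.84, so that each group varied more than 2-fold within itself. Its difference was -2.22 (limma, SE 0.82, adjusted p = 0.237), and it did not pass with all 4 arrays. Without tumor replicate 1 it did, at -3.12 (adjusted p = 0.0011), and without tumor replicate 2 it did not, at -1.32 (adjusted p = 0.0546).

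Ckm encodes muscle creatine kinase, which sits at the M-band and regenerates ATP from phosphocreatine. Its probe set 1417614_at gave 245 and 168 in normal ureter and 33.1 and 25.8 in the tumors, a clear gap with close tumor values. The difference was -2.27 (limma, SE 0.39 with n = 2 in each group, adjusted p = 0.0892) with an interval from -3.34 to -1.21, and it did not pass. Without tumor replicate 1 or tumor replicate 2 it passed, at -2.39 (adjusted p = 0.000876) and -2.16 (adjusted p = 0.00112), again with the spread of the normal arrays alone. A second probe set, 1444643_at, gave 85 and 59.6 against 67.6 and 13.9, with overlapping groups and a mean under the limit.

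**Figure D3:**
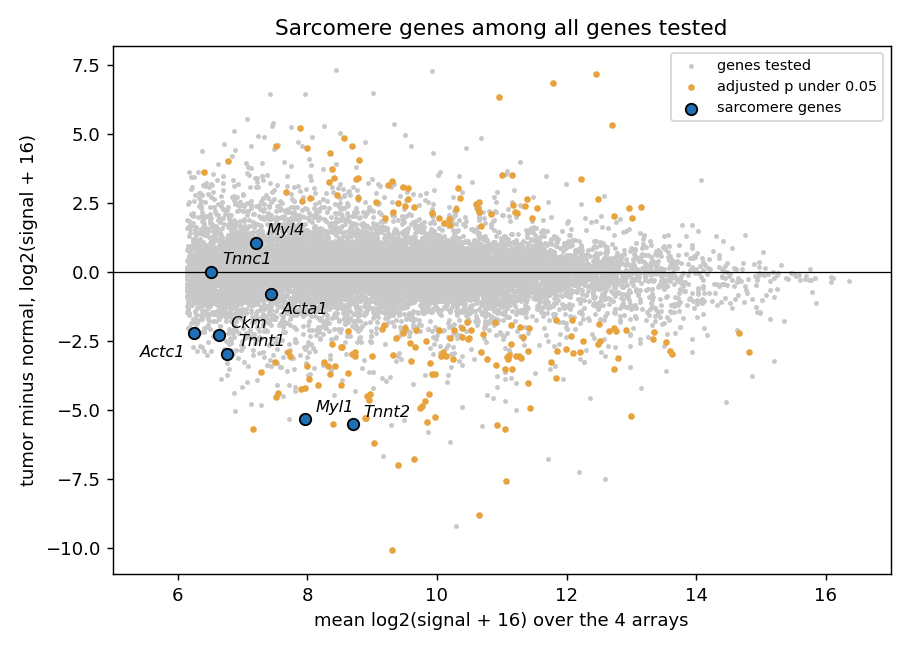
Tumor minus normal against the mean over the 4 arrays, both on the log2(signal + 16) scale, for the 13046 genes tested (grey), the 187 called (orange) and the 8 tested sarcomere genes (blue, named). Tnnt2 and Myl1 lie among the lowest differences, with ranks of 19 and 24 by fall, and the other 6 sarcomere genes lie between -2.95 and 1.07.

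The rest of the striated muscle program was read from lists of thick filament, thin filament, Z-disc, calcium cycling, muscle energy and myogenic genes, 87 genes in all, of which 84 were on the chip and 35 were tested. Of these 35, 2 fell, 0 rose and 33 did not pass, where 1.43% of all genes tested passed. The 2 were Pdlim3, a Z-disc protein that binds alpha-actinin, and Cox8b, a muscle-type subunit of cytochrome oxidase that brown fat also makes. The median difference of the 35 was -0.67, beside 0.03 over all genes tested. In 18 of the 35 both tumor arrays lay below both normal arrays and in 5 both lay above, where the shares over all genes tested were 27.7% and 29.4%. Some of the 35, such as Myh6 and Myl3, were under the limit on both tumor arrays and were tested through their normal arrays. The median and these counts therefore support nothing further. Without normal replicate 1 or normal replicate 2 neither gene passed. With 1 tumor array left out, differences in these lists went both ways. Pgam2, a muscle energy gene, was at 2.70 without tumor replicate 1 and at -2.74 without tumor replicate 2. Nebl was at 4.49 without tumor replicate 2.

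Of 20 thick filament genes 6 were tested and 0 passed. The myosin heavy chains of adult fast muscle were dim on every array: Myh1 reached at most 45.2, Myh2 7.14 and Myh4 26.8. Myh6, the heavy chain of the atrium, gave 303 and 222 in normal ureter and 23.3 and 40 in the tumors, with a difference of -2.55 (limma, SE 0.40, adjusted p = 0.0788). Myom1, which links myosin at the M-band, gave 562 and 293 against 73.7 and 18.4, with a difference of -2.93 (adjusted p = 0.126). Both had groups that did not overlap. Myl3, a light chain of slow and ventricular muscle, and Mybpc3, the heart form of myosin-binding protein C, had differences of -0.67 and 0.96 (adjusted p = 0.39 and 0.40).

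Of 12 thin filament genes 6 were tested and 0 passed. Tpm2, a tropomyosin that smooth muscle also makes, gave 12651 and 11452 in normal ureter and 5154 and 4879 in the tumors, with a difference of -1.26 (limma, SE 0.18, adjusted p = 0.0702). Tmod1, which caps thin filaments, had a difference of -1.55 (adjusted p = 0.104), Tpm3 one of 0.60 (adjusted p = 0.278) and Tnni2, the fast skeletal troponin I, one of -1.57 (adjusted p = 0.32). Tnni2 gave 283 and 291 in normal ureter and 188 and 35.2 in the tumors, so its tumor arrays disagreed in size. Tnnc2, the fast skeletal troponin C and partner of Tnnt3, was not tested and gave 45.3 and 87.9 against 1.43 and 2.71. Neb, also not tested, went the other way, with 2.02 and 1.49 against 168 and 24.7. Nebl was tested and gave 94.4 and 52.4 against 1937 and 136, a difference of 2.65 (limma adjusted p = 0.34). Of the 6 tested, both tumor arrays lay below both normal arrays in 3 and above in 2 (27.7% and 29.4% of all genes tested).

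Among 17 Z-disc genes 7 were tested, of which Pdlim3 fell and 6 did not pass. Pdlim3 gave 1140 and 1273 in normal ureter and 104 and 168 in the tumors. It fell by 3.04 log2 units (limma, SE 0.31 with n = 2 in each group, adjusted p = 0.0466), and the call ended under 7 of the 16 alternatives, among them those without normal replicate 1 or normal replicate 2. Ldb3, which binds alpha-actinin, gave 722 and 567 against 111 and 76.8, with a difference of -2.60 (adjusted p = 0.0568). Des, the muscle intermediate filament of both striated and smooth muscle, had a difference of -1.32 (adjusted p = 0.129). The chaperone gene Cryab had a difference of -1.32 (adjusted p = 0.498) that rested on 1 array. It was 1289 in tumor replicate 1 and 7468 in tumor replicate 2, and the difference was -0.06 without tumor replicate 1 and -2.58 without tumor replicate 2.

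Of 16 calcium cycling genes 9 were tested and 0 passed. Casq2 and Casq1, which store calcium in the sarcoplasmic reticulum of heart and of fast muscle, gave -1.57 and -1.77 (adjusted p = 0.116 and 0.124). Srl, of the same compartment, and Jph2, which joins it to the cell membrane, had differences of -1.71 and -1.67 (adjusted p = 0.166 each). Both tumor arrays lay below both normal arrays in 5 of the 9, these 4 genes among them (27.7% of all genes tested). In 1, Atp2a2, both lay above (29.4% of all genes tested), with 9737 and 8021 in normal ureter against 10178 and 10362. The groups of the other 3 overlapped, among them Pvalb with a difference of 1.08 (limma adjusted p = 0.46). Among 11 muscle energy genes 6 were tested and Cox8b alone fell. It fell by 8.80 (limma, SE 0.54 with n = 2 in each group, adjusted p = 0.0369), from 36514 and 31248 to 110 and 29.9, and its call ended without normal replicate 1 or normal replicate 2. Cox7a1, another subunit that stands on the brown fat list too, had a difference of -4.87 (adjusted p = 0.135), which was -3.25 without tumor replicate 1 and -6.48 without tumor replicate 2. Eno3, muscle enolase, had one of -0.43 (adjusted p = 0.489) and Fabp3, a fatty acid carrier, one of -2.41 (adjusted p = 0.504). Fabp3 was 55.4 in tumor replicate 1 but 2663 in tumor replicate 2, near the 2046 and 2610 of normal ureter.

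The last list held 11 myogenic genes, regulators of skeletal muscle formation and genes of the nerve-muscle synapse, of which Mef2c alone was tested, with a difference of 0.64 (limma adjusted p = 0.288). Mef2c is also made in endothelial and immune cells. The other 9 on the chip reached at most 51.6 on any array, under the limit of 54.65. They were the regulators Myod1, Myog, Myf5, Myf6 and Pax7 and the synapse genes Chrna1, Chrng, Chrnd and Musk. Of 12 heart markers 4 were tested and 0 passed. They were Myh6, Myl3 and Mybpc3, given above as thick filament genes at -2.55, -0.67 and 0.96, and Pln, which restrains the calcium pump, at -0.67 (adjusted p = 0.396). Pln gave 124 and 151 in normal ureter and 61.7 and 103 in the tumors. The 8 heart markers not tested had highest signals from 18.4 to 128. Among them Nppa, a heart hormone, reached at most 29. Nppb gave 10.1 and 8.99 in normal ureter and 78.6 and 41.1 in the tumors. Tbx5 went the other way, with 128 and 57.8 against 2.08 and 23.6.

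**Figure D4:**
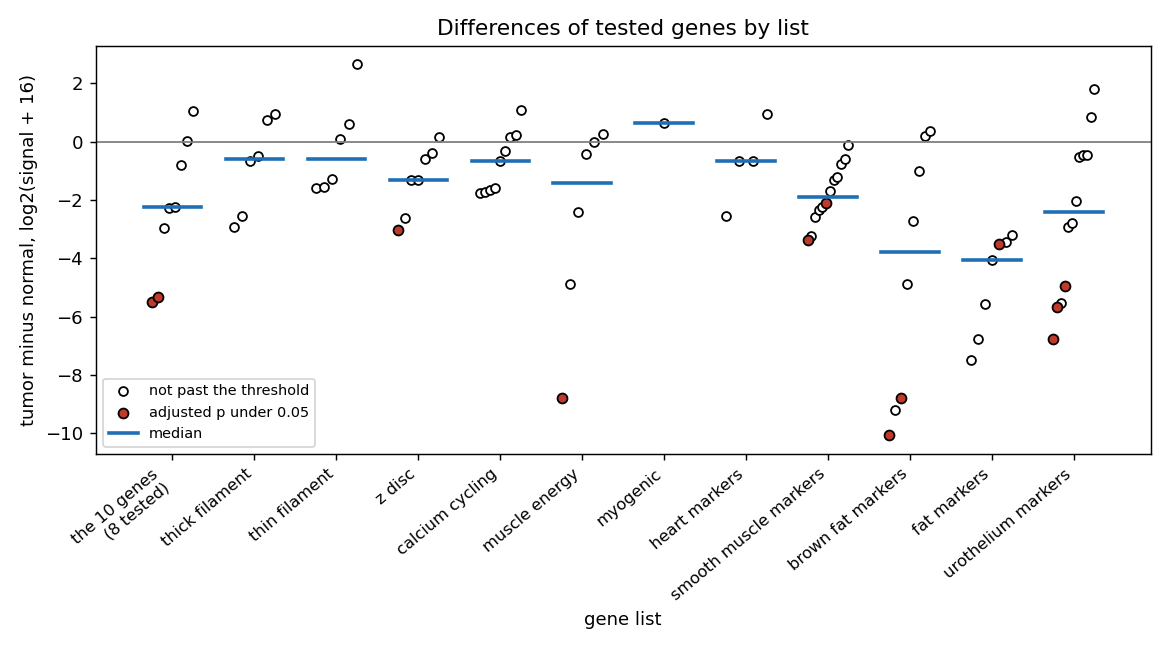
Tumor minus normal on the log2(signal + 16) scale for each tested gene (points, red where the limma adjusted p is under 0.05) of the sarcomere genes and of each list, with the median of each list as a blue line; genes can stand in more than 1 list. The medians of the fat, brown fat, urothelium and smooth muscle lists are -4.06, -3.79, -2.41 and -1.89, and those of the thick and thin filament lists are -0.57 and -0.58.

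Several markers of other cell types fell as well. Smooth muscle markers were 12 of 12 tested, with summed signals of 77300 and 64138 in normal ureter and 21405 and 31403 in the tumors. Myh11, the smooth muscle heavy chain, fell by 3.37 (limma, SE 0.25, adjusted p = 0.0402) and Mylk, the kinase that activates smooth muscle myosin, fell by 2.10 (SE 0.18, adjusted p = 0.0425). Hspb6 and Cnn1 had differences of -2.23 and -2.59 (adjusted p = 0.0526 and 0.0594), and Acta2, the brightest, -1.21 (adjusted p = 0.195). In 11 of the 12 both tumor arrays lay below both normal arrays, as in 27.7% of all genes tested, and 2 of 12 passed the test, where 1.43% of all genes did.

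Brown fat markers summed to 99748 and 91246 in normal ureter and 3503 and 5055 in the tumors over 9 genes. Of 8 tested, Ucp1, which makes heat in mitochondria, and Cox8b fell, where 1.43% of all genes tested passed. Ucp1 fell by 10.06 (limma, SE 0.20, adjusted p = 0.00863). Cidea and Elovl3 had differences of -9.18 and -2.72 (adjusted p = 0.0542 and 0.0922), while Dio2 and Prdm16 gave overlapping groups. General fat markers summed to 248147 and 263728 in normal ureter and 39184 and 6856 in the tumors over 7 genes, of which Pnpla2, a lipase, fell by 3.50 (SE 0.20, adjusted p = 0.0369) and 6 did not pass. Lipe, Fabp4 and Cidec had differences of -4.06, -3.20 and -5.57 (adjusted p = 0.0727, 0.137 and 0.146).

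Urothelium markers were read as a check of the labelled tissue and were bright on the normal arrays. Their sums over 12 genes were 65890 and 99679 there, against 67627 and 38810 on the tumor arrays. The 7 general fat genes summed to more on the normal arrays, at 248147 and 263728. The check therefore does not show that the normal samples held epithelium alone. Upk3a, Krt20 and Upk1b, genes of the surface layer, had differences of -6.76, -4.93 and -5.66 and passed (limma adjusted p = 0.0369, 0.042 and 0.0425). Of all genes tested, 1.43% passed. Epcam, an epithelial adhesion gene, had a difference of 1.82 (adjusted p = 0.0961) and Krt8, the brightest, -0.46 (adjusted p = 0.463). Cdh1 had one of 0.85 (adjusted p = 0.174). Krt5 gave 3415 and 5518 in normal ureter and 15780 and 628 in the tumors. Trp63 gave 2446 and 3847 against 10167 and 440, so the tumor arrays disagreed in both genes. In 7 of the 12 markers both tumor arrays lay below both normal arrays and in 2 above (27.7% and 29.4% of all genes tested). No gene of these lists was at 0 on the arrays, and without normal replicate 1 or normal replicate 2 none of the calls among these markers remained. Over all 16 alternatives the calls of Myh11 and Mylk ended under 6, those of Pnpla2, Krt20 and Upk1b under 5, those of Cox8b and Upk3a under 4 and that of Ucp1 under 3. The part of smooth muscle, fat and urothelial cells in the falls of Tnnt2 and Myl1 was not tested.

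The other gene most like each tested sarcomere gene over the 4 arrays was found by Euclidean distance between log2 values centred on their own mean. For Tnnt2 it was Slc1a5, a glutamine transporter, at a distance of 0.15 log2 units, with 6635 and 5524 in normal ureter and 115 and 136 in the tumors. For Myl1 it was Fasn, the fatty acid synthase, at 0.25, with 49647 and 49711 against 2202 and 805. For Tnnt1 it was Slc2a4, the insulin-responsive glucose transporter of muscle and fat, at 0.13, and for Ckm it was Gsto2 at 0.15. For Acta1, Actc1, Myl4 and Tnnc1 they were Dolpp1, Nkain4, Prelid1 and Ggt5, at 0.07, 0.40, 0.04 and 0.06. With 4 arrays that all genes share, such likeness is a description of these arrays.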

How the data were processed

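The authors deposited 1 table of linear signal intensity for each probe set, and the submitters' processing notes name MAS5. Detection calls, filters and the version of MAS5 are not stated there. Labelled cRNA came from 6 ug of RNA per array, per the labels' protocols. The trimmed mean, without 2% of the 45101 probe sets at either end, was 500.0 on every array. Symbols came from the platform annotation, updated by gene ID for 34741 of 34945 probe sets with a single symbol, and 64 controls were left out.

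Each gene was read from the single-gene probe set that had the highest mean log2(signal + 16), and was tested where that mean reached the 40th percentile of probe sets. Groups were compared with limma (3.58.1, R 4.3.3), two-sided, using an intensity trend, with 2 residual and 2.11 prior degrees of freedom. An exact permutation test of 2 against 2 cannot go below p = 0.333. The steps were tested on simulated data with the spread of the normal arrays in both groups. That cannot show how the fit behaves with the wider spread of the tumor arrays. The number of arrays limits the precision. The genes and lists were chosen with earlier results of these data known. The named list genes are up to 4 with the smallest p in each list, which include all those past the test, and the brightest of each marker list. Other list genes, dim ones among them, were named after their values were seen. Sequences are from RefSeq. Labels call the samples biological replicates, and their numbers were not taken as pairs: deviations of same-numbered arrays correlated at 0.0391. The closing section gives the alternatives.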

Additional observations from a re-analysis of the deposited data

How the results depend on the processing

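The alternatives were 2 other pseudocounts, 2 other scalings, 2 other filters, 2 other readings of a gene, 2 other variance priors, the replicate number as a block, each array left out, and, added after seeing the data, the choice of probe set by linear signal. The count of 187 genes moved to 35 with median centring, which moved the median difference of all genes tested from 0.03 to 0.22, to 104 with the mean of probe sets, to 473 probe sets when every probe set was fitted, and to 2 without the intensity trend. With arrays left out it ran from 0 to 5502. Of the sarcomere genes, Tnnt2 alone passed with a pseudocount of 1, quantile normalization, median centring, no filter or the mean of probe sets, so 1 gene was called, and 0 passed without the intensity trend. With arrays left out the count ran from 0 to 5. Of the other striated muscle genes 1 (Cox8b) passed with median centring, no filter or the mean of probe sets, and 0 without the trend, with a range of 0 to 18 with arrays left out. With the replicate number as a block, 0 genes passed the limma test (2253 at an unadjusted p under 0.05), so 0 sarcomere and 0 list genes did, and Tnnt2 and Myl1 lost their calls with adjusted p = 0.108 each, at differences of -5.51 and -5.32 that a block cannot move in this balanced design; the block leaves fewer residual degrees of freedom, and the numbers were not shown to pair the samples. Tnnc1 turned to -0.01 with a pseudocount of 64, and with arrays left out it ran from -0.45 (without normal replicate 2) through -0.01 (without tumor replicate 2) to 0.48. Fabp3 ran from -5.03 without tumor replicate 2 to 0.20 without tumor replicate 1. The other 7 tested sarcomere genes kept their direction under the alternatives run. The cause of these changes was not tested. Signals near or under the limit are imprecise, and no detection calls were used.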
